A study of Danio rerio with 9 samples.

Results

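The genes described here encode RNA polymerase II, the general transcription factors that place it at promoters, and Mediator, the complex that relays signals from bound transcription factors to the polymerase. They were chosen by name from the zebrafish Ensembl gene table: every gene whose symbol starts with polr2, with gtf2, with med and a digit, or with taf and a number from 1 to 13, and tbp. The rule found 78 of 32520 genes, which are 14 polymerase genes, 34 general factor genes and 30 Mediator genes. No measured value entered the rule. It also took in a few relatives that act elsewhere: taf5l and taf6l belong to the SAGA coactivator, taf1a and taf1b to the SL1 factor of RNA polymerase I, and polr2m encodes a protein that binds the polymerase rather than a subunit of it.

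RNA was sequenced from heads of Tubingen zebrafish at the long-pec stage, 2 days post-fertilization, cut off at the base of the hindbrain. Each of the 9 samples was a pool of 5 heads. The 3 ZM samples came from larvae made germ-free and then given a sterile filtrate of adult zebrafish gut contents in their medium, the 3 GF samples from germ-free larvae, and the 3 CV samples from conventionally raised larvae. ZM and GF larvae shared a sterilization by gentamicin and dilute hypochlorite during gastrulation that CV larvae did not have, so the absence of microbes and the sterilization cannot be told apart in either comparison with CV. The filtrate was not fractionated, and what it holds besides bacterial metabolites was not separated from them.

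RNA polymerase II makes the messenger RNAs of nuclear genes. Its core is built of a large pair of subunits, Rpb1 and Rpb2, encoded by polr2a and polr2b, which form the active site, and of a set of small subunits, some of which also serve in RNA polymerases I and III. Before transcription starts, TFIID, made of the TATA-binding protein and its associated factors (TAFs), recognizes the promoter, and TFIIA, TFIIB, TFIIE, TFIIF and TFIIH then help to load and open it. Mediator is described in a head, a middle and a tail, held together by the scaffold subunit Med14, with a kinase module of Med12, Med13, Cdk8 and cyclin C that can dock on it and detach from it.

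Values were FPKM, fragments per kilobase of transcript scaled to the mapped fragments of the sample, which are set per length, so that levels of different genes may be compared. Differences are log2 fold changes on the log2(FPKM + 1) scale from limma, with all 9 samples in the model, and their p-values were adjusted by Benjamini and Hochberg over the 15904 genes with a mean of at least 1 FPKM. The scale understates the change of low genes. Of the members, 74 passed that limit, with 13 for the polymerase, 32 for the general factors and 29 for Mediator. The other 4 were nearly silent: polr2e (ENSDARG00000074274) was listed at 0 in all 9 samples, while gtf2f2 (ENSDARG00000006816), taf4b and med1l stayed below 0.142 FPKM in each. Where a symbol recurs, the copy described below is polr2e ENSDARG00000026183, gtf2f2 ENSDARG00000069910 and, for med19, the copy named by its identifier.

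Across all genes, GF and CV differed mostly by genes that were lower in GF: 1841 were lower and 124 higher at an adjusted p under 0.1 (limma), or 886 lower and 231 higher after quantile normalization. CV2 stood apart from CV1 and CV3. Among tested members it lay nearer to the GF mean than to the mean of CV1 and CV3, on the log2 scale, in 15 of the 17 that were lower in GF and in 47 of the other 57, so counts that moved without it are given below.

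The marker lists for the tissues of a head and for those outside it overlapped between GF and CV in summed FPKM with 1 exception, the epidermal list (7 of 7 genes measured), at 14888 to 18331 in GF, against 13025 to 13549 in CV; its part in the results was not tested. Single markers were separate in other lists too. Every GF sample lay below every CV sample for 1 of 6 neuronal genes (elavl3) and 1 of 8 progenitor genes (notch1a). The same held for 2 of 6 lens and retina genes (rx1 and crybb1). Every GF sample lay above for 1 lens gene (crygm2d20) and 5 of the 7 epidermal genes. Of all genes tested, 17.7% were separate below and 9.14% above. With so few genes, the counts for neurons, progenitors and lens and retina do not set those lists apart from these shares. elavl3 had 41.9, 38.3 and 29.7 FPKM in GF heads, against 113, 53.8 and 148 FPKM in CV heads, and notch1a had 1.13, 1.11 and 1.15 FPKM in GF heads, against 8.06, 2.36 and 9.30 FPKM in CV heads. In both, CV2 was the CV sample nearest to GF, as in the members that were lower, and the part of these cell types in the results was not tested. Neuronal markers (6 of 10 listed names measured) summed to 473 to 705 FPKM in GF and 535 to 1001 FPKM in CV, and trunk Hox and tailbud markers (8 measured, none at 0 throughout) to 24.5 to 43.7 FPKM in GF and 30.3 to 38.8 FPKM in CV. In pools of whole heads, fewer cells that express a gene and less RNA per cell cannot be told apart.

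Levels within the complexes were far apart. In CV heads the polymerase genes ran from 2.41 FPKM for polr2m to 89.0 FPKM for polr2d, the gene of the Rpb4 stalk subunit, with a median of 41.5 FPKM. The genes of both large subunits sat at the low end, polr2a at 6.94 FPKM and polr2b at 12.2 FPKM, although the enzyme holds 1 copy of each. General factors ran from 1.51 FPKM for gtf2a1l to 82.7 FPKM for taf12, a histone-fold TAF, with a median of 18.7 FPKM. Mediator genes ran from 2.56 FPKM for med13b to 49.7 FPKM for med10, with a median of 14.0 FPKM.

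The first comparison asks how the heads of germ-free larvae differ from those of conventionally raised larvae. No member passed an adjusted p of 0.05, which 1 gene of all tested passed as lower (0.00629%) and 0 as higher. At an adjusted p under 0.1, 17 of 74 members fell in GF (23.0%, against 11.6% of all genes tested) and 1 rose (0.78% of all genes). With no adjustment, 18 members were lower at a p under 0.05 (18.0% of all genes) and 4 higher (4.7% of all genes). Every GF sample lay below every CV sample for 19 members (17.7% of all genes), and above for 9 (9.14% of all genes). By complex, 2 of 13 polymerase genes, 7 of 32 general factors and 8 of 29 Mediator genes fell. Of the 17, 4 (taf4a, taf6l, med13a and med13b) averaged under 1 FPKM over the ZM and GF samples. These 4 entered the test only through CV, the group where they were high, so their calls are no support. Without them 13 are left. The 11.6% of all genes was not cleared of such genes, so it is no like share for the 13.

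The difference was uneven inside each complex and did not show in the medians. Over the polymerase genes the median of the GF over CV log2 fold changes was 0.19, over the general factors 0.08 and over Mediator 0.15, beside 0.02 over all genes tested. The 17 genes that fell ran from -1.75 to -0.78 with a median of -1.16, and their GF means were 19.1% to 49.6% of their CV means. The other 57 ran from -0.50 to 0.53 with a median of 0.19, and 46 of them had a higher mean in GF. As the 17 were taken from this contrast, their values describe them and test nothing.

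**Figure D1:**
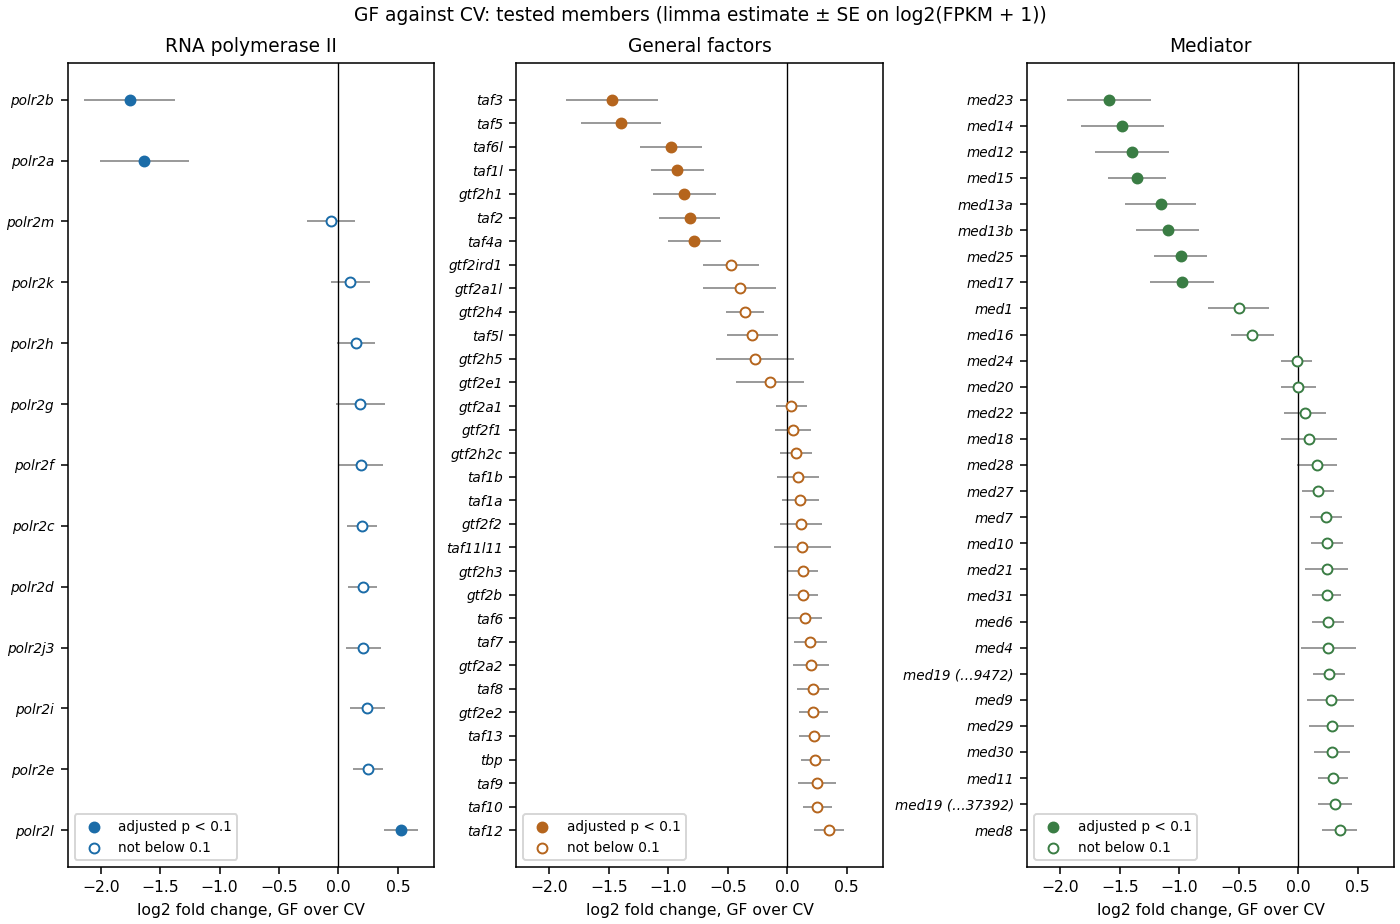
Log2 fold change in GF over CV of the 74 tested members, with bars of 1 SE, in 3 panels by complex; the x axis is on the log2(FPKM + 1) scale and filled points mark an adjusted p under 0.1 (limma). In each panel a few genes lie between -1.75 and -0.78 while most lie between 0 and 0.53.

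In the polymerase 2 of the 13 tested genes fell at this threshold, those of the catalytic pair (15.4%, against 11.6% of all genes). With so few genes, that count does not set the enzyme apart from the background. polr2a (ENSDARG00000099966), which encodes Rpb1 with its long repeated tail, had 1.45, 1.21 and 1.32 FPKM in GF heads, against 8.32, 2.74 and 9.75 FPKM in CV heads. polr2b (ENSDARG00000098783), which encodes Rpb2, had 2.53, 2.45 and 2.28 FPKM in GF heads, against 12.4, 4.59 and 19.5 FPKM in CV heads. For both, the GF samples were close together and below all CV samples, and CV2 was the lowest of the CV samples. The log2 fold change was -1.63 ± 0.37 for polr2a and -1.75 ± 0.38 for polr2b (SE, n = 3 each, limma adjusted p = 0.0531 for each), and the GF means were 19.1% and 19.9% of the CV means.

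The small subunits went the other way in sign. All 10 (polr2c, polr2d, polr2e, polr2f, polr2g, polr2h, polr2i, polr2j3, polr2k and polr2l) had a higher mean in GF than in CV, with log2 fold changes of 0.10 to 0.53 and a median of 0.20. Only polr2l (ENSDARG00000058349), which encodes a small zinc-binding subunit shared by all the polymerases, passed the threshold with all samples. Without CV2, polr2e, polr2i and polr2l passed it, where 6.03% of all genes were higher. With no adjustment, 6 of the 10 then had a p under 0.05, where 11.4% of all genes were higher. For polr2c, polr2d, polr2e, polr2i and polr2j3 CV2 was the highest CV sample. Leaving it out therefore raised their estimates, and these calls test nothing. polr2l had 82.5, 90.3 and 99.9 FPKM in GF heads, against 63.3, 60.1 and 64.4 FPKM in CV heads, groups that did not overlap (log2 fold change 0.53 ± 0.14, SE, n = 3 each, limma adjusted p = 0.0576). Scaling each sample to an equal sum moved the median of all genes to -0.09, and quantile normalization moved it to 0.12; polr2l no longer passed under either, and with an equal sum 9 of the 10 small subunits were above 0 with a median of 0.07. Without CV3, 8 of the 10 were above 0.

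The next in order were also small changes. polr2e, another shared subunit, had 81.9, 76.2 and 81.6 FPKM in GF heads, against 63.5, 78.9 and 60.0 FPKM in CV heads, and polr2i (ENSDARG00000040443), the Rpb9 subunit used in proofreading, had 44.4, 42.5 and 43.7 FPKM in GF heads, against 35.9, 44.4 and 30.9 FPKM in CV heads. In both, CV2 reached into the GF range and the other CV samples lay below it (log2 fold changes 0.25 ± 0.13 and 0.24 ± 0.15, SE, n = 3 each, limma adjusted p = 0.283 and 0.371). polr2k, also shared by all the polymerases, averaged 35.9 ± 1.0 FPKM in GF and 33.7 ± 5.7 FPKM in CV (SD, n = 3 each), and polr2m averaged 2.24 ± 0.19 FPKM in GF and 2.41 ± 0.63 FPKM in CV (SD, n = 3 each). Their groups overlapped, and the signs of both differences turned under some scalings or without CV3.

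A ratio of 2 genes within a sample does not depend on scaling. The FPKM ratio of polr2a to polr2c, the gene of the Rpb3 assembly subunit, was 0.0286, 0.0261 and 0.0292 in GF heads, against 0.204, 0.0579 and 0.270 in CV heads. All GF ratios lay below all CV ratios, with a mean log2 difference of -2.4 (exact permutation test, two-sided, p = 0.1, the smallest that 3 against 3 samples can give).

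**Figure D2:**
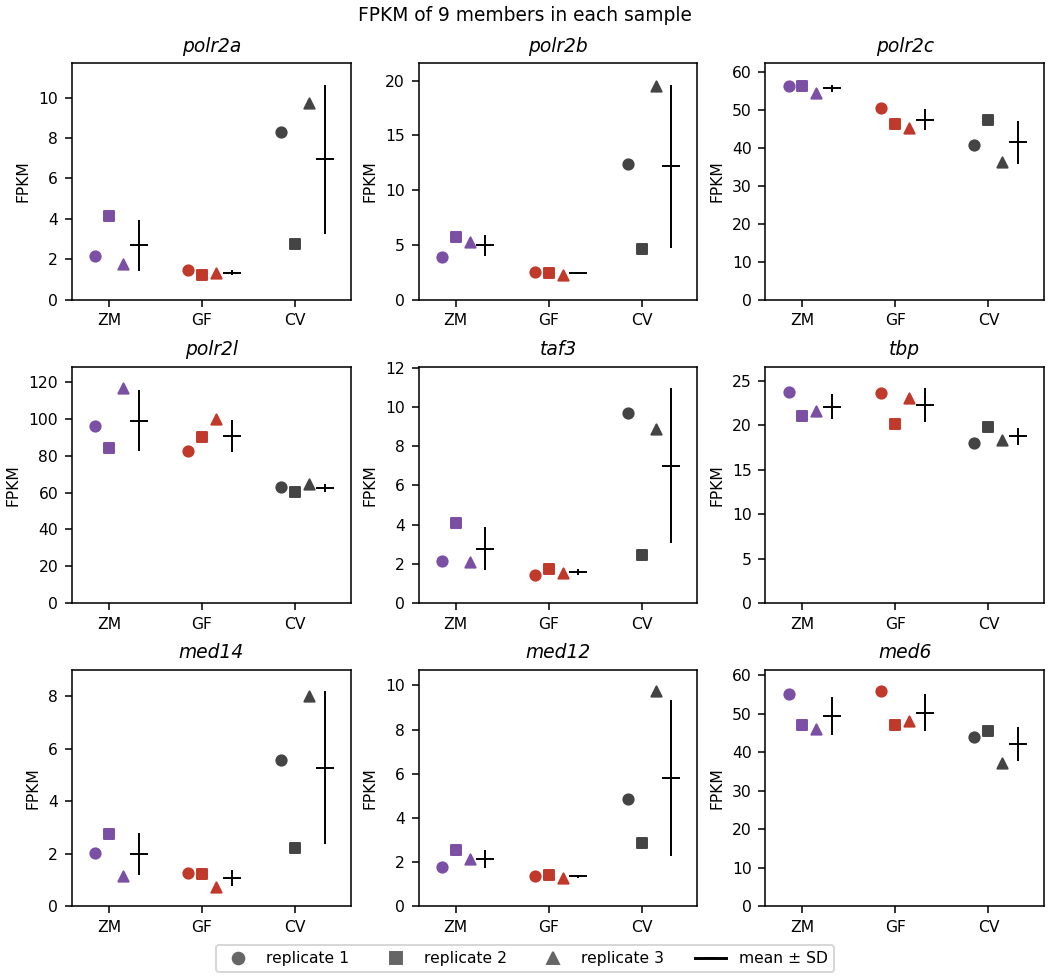
FPKM of 9 members in each ZM, GF and CV sample (y axis from 0, own scale per gene), with symbols for replicate numbers and a bar for the mean and SD of 3 samples. polr2a, polr2b, taf3, med14 and med12 are highest in CV1 and CV3 and have their lowest mean in GF, whereas polr2c, polr2l, tbp and med6 have their highest mean in ZM or GF.

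The related polymerases were measured in the same samples. Of the tested subunits of RNA polymerase I, which makes ribosomal RNA, 0 of 8 differed between GF and CV at an adjusted p under 0.1, and 0 of 9 of RNA polymerase III, which makes transfer RNA (limma; 11.6% of all genes fell and 0.78% rose). With no adjustment, 1 of 8 was lower and 1 of 9 higher at a p under 0.05, beside 18.0% and 4.7% of all genes, so with so few genes these counts set neither enzyme apart from the background. The counterparts of the large pair, polr1a and polr1b, had log2 fold changes of -0.34 ± 0.15 and -0.37 ± 0.18 (SE, n = 3 each, limma adjusted p = 0.204 and 0.259), and polr3b had -0.51 ± 0.24 (adjusted p = 0.25). polr3a, the gene of the largest subunit of RNA polymerase III, averaged 0.735 FPKM and was below the limit for testing. It had 0.467, 0.411 and 0.413 FPKM in GF heads, against 0.779, 0.704 and 2.17 FPKM in CV heads, with no overlap and a GF mean at 35.4% of the CV mean. Every GF sample also lay below every CV sample for polr1a, polr1b, polr3b and polr3c (17.7% of all genes). Above every CV sample were those of polr3glb and polr3k (9.14% of all genes). polr2a stood at 0.359, 0.331 and 0.381 of polr1a in GF heads, against 1.51, 0.579 and 2.09 in CV heads. This was a difference of -1.78 on the log2 scale (exact permutation test, two-sided, p = 0.1). For polr2b over polr1b the difference was -1.62, again with no overlap (exact permutation test, p = 0.1). These pairs were picked after their values were seen.

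**Figure D3:**
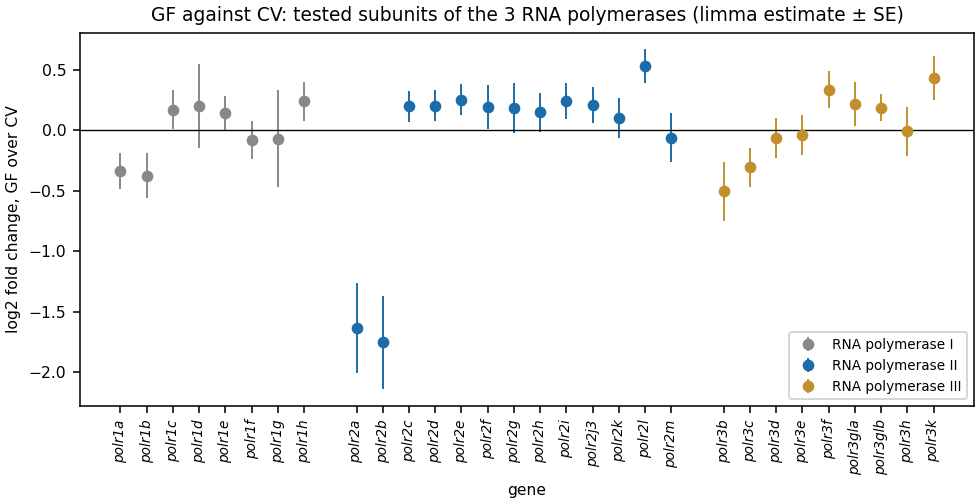
Log2 fold change in GF over CV, with bars of 1 SE, for the tested subunits of RNA polymerases I, II and III; the y axis is on the log2(FPKM + 1) scale. polr2a and polr2b lie at -1.63 and -1.75, while every other tested subunit lies between -0.51 and 0.53.

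Among the general factors the genes that fell were mainly TAFs. TFIID had 5 of 14 tested members lower at an adjusted p under 0.1 (taf3, taf5, taf1l, taf2 and taf4a), TFIIH 1 of 5 (gtf2h1) and the SAGA pair 1 of 2 (taf6l). Of these, taf4a and taf6l entered the test only through CV, so their calls are no support. None of the 8 tested genes of TFIIA, TFIIB, TFIIE and TFIIF passed, nor did the SL1 pair or gtf2ird1 of the TFII-I family (limma). At an unadjusted p under 0.05, 0 of these 11 were called in either direction. Over all genes tested 11.6% fell, and with no adjustment 18.0% were lower and 4.7% higher. With so few genes, 0 of 11 does not set these factors apart from those shares.

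taf3 (ENSDARG00000045513), whose product reads methylated histone H3 at promoters, had 1.45, 1.72 and 1.55 FPKM in GF heads, against 9.67, 2.46 and 8.87 FPKM in CV heads. taf5 (ENSDARG00000018325), a scaffold of the TFIID lobes, had 2.25, 2.23 and 2.21 FPKM in GF heads, against 9.98, 3.39 and 11.8 FPKM in CV heads. In both, GF samples were nearly equal and CV2 was the CV sample closest to them. The log2 fold changes were -1.47 ± 0.39 for taf3 and -1.40 ± 0.34 for taf5 (SE, n = 3 each, limma adjusted p = 0.0571 and 0.0531).

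taf1l (ENSDARG00000035330), the symbol that the name table gives to the zebrafish gene of the largest TFIID subunit, fell to 4.82, 4.17 and 3.27 FPKM in GF heads, against 9.71, 5.81 and 11.0 FPKM in CV heads (log2 fold change -0.92 ± 0.22, SE, n = 3 each, limma adjusted p = 0.0532). taf6l, the SAGA counterpart of taf6, had 0.643, 0.657 and 0.708 FPKM in GF heads, against 3.15, 1.09 and 3.10 FPKM in CV heads (log2 fold change -0.98 ± 0.26, adjusted p = 0.0573). Neither gene's groups overlapped. taf2, a promoter-binding TAF, taf4a, and gtf2h1, the p62 subunit of TFIIH, made up the rest at -0.82, -0.78 and -0.87.

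The DNA-binding subunit itself did not fall. tbp (ENSDARG00000014994) had 23.7, 20.2 and 23.1 FPKM in GF heads, against 18.1, 19.8 and 18.4 FPKM in CV heads. All GF samples were above all CV samples, by 0.24 ± 0.12 on the log2 scale (SE, n = 3 each, limma adjusted p = 0.289). The 3 general factors with the highest estimates were all histone-fold TAFs, taf12, taf10 and taf9. taf12 (ENSDARG00000104030) averaged 105 ± 6.1 FPKM in GF and 82.7 ± 9.5 FPKM in CV (SD, n = 3 each, log2 fold change 0.35, limma adjusted p = 0.125), taf10 had 0.25 (adjusted p = 0.244) and taf9 0.25 (adjusted p = 0.405). The ratio of taf1l to taf10 was 0.0546, 0.0482 and 0.0350 in GF heads, against 0.135, 0.0683 and 0.161 in CV heads, with no overlap (log2 difference -1.34, exact permutation test, p = 0.1).

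In Mediator the genes that fell lay mostly in the kinase module, the scaffold and the tail. All 3 tested genes of the kinase module that the rule takes in fell, med12, med13a and med13b. The scaffold gene med14 and 3 of 5 tail genes, med15, med23 and med25, fell as well. Both med13 genes entered the test only through CV, so their calls are no support. Of the head, 1 of 7 fell (med17), and of the middle, 0 of 9, and of the upper tail (med27, med28, med29 and med30), 0 of 4. Over all genes tested 11.6% fell, so with so few genes these low counts set none of these parts apart from the background. The median log2 fold change was -1.16 for the kinase module, -0.99 for the tail, 0.09 for the head, 0.24 for the middle and 0.22 for the upper tail. The kinase median is the estimate of med13a itself, which entered the test only through CV, so it is no support either.

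med14 (ENSDARG00000009953), the backbone of the complex, had 1.26, 1.23 and 0.748 FPKM in GF heads, against 5.58, 2.22 and 8.0 FPKM in CV heads. med23 (ENSDARG00000029157), a tail subunit contacted by activators, had 1.68, 1.48 and 0.973 FPKM in GF heads, against 7.05, 2.91 and 10.4 FPKM in CV heads. In both the groups were separate, with the CV samples spread widely above the GF samples. The log2 fold change was -1.48 ± 0.35 for med14 and -1.59 ± 0.35 for med23 (SE, n = 3 each, limma adjusted p = 0.0531 for each). med15, another activator-binding tail gene, averaged 1.28 ± 0.021 FPKM in GF and 5.07 ± 2.1 FPKM in CV (SD, n = 3 each), a log2 fold change of -1.35 ± 0.24 (SE, adjusted p = 0.0531).

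In the kinase module, med12 (ENSDARG00000103953), whose product activates the kinase, had 1.39, 1.42 and 1.29 FPKM in GF heads, against 4.86, 2.87 and 9.72 FPKM in CV heads. med13a (ENSDARG00000053884) had 0.411, 0.298 and 0.924 FPKM in GF heads, against 1.68, 1.63 and 4.54 FPKM in CV heads. med13b (ENSDARG00000003910) had 0.689, 0.497 and 0.558 FPKM in GF heads, against 2.35, 1.28 and 4.06 FPKM in CV heads. Both med13 genes, whose product tethers the module to Mediator, were low in every sample, and no GF sample reached a CV sample in any of the 3 genes (log2 fold changes -1.40, -1.16 and -1.10, limma adjusted p = 0.0531, 0.0562 and 0.0533). Reads of the similar med13 pair may be shared between them. The catalytic part of the module, outside the naming rule, gave -0.35 ± 0.17 for cdk8 and 0.10 ± 0.14 for ccnc, its cyclin (SE, n = 3 each, limma adjusted p = 0.26 and 0.717). For cdk8 every GF sample lay below every CV sample (17.7% of all genes), while the groups of ccnc overlapped.

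Most head and middle genes had slightly higher means in GF. med8 (ENSDARG00000114425), a head subunit, had 11.5, 10.1 and 13.2 FPKM in GF heads, against 8.59, 9.24 and 8.77 FPKM in CV heads, with no overlap (log2 fold change 0.35 ± 0.15, SE, n = 3 each, limma adjusted p = 0.192). med19 (ENSDARG00000037392) and med11 had estimates of 0.31 ± 0.14 and 0.29 ± 0.12 (SE, adjusted p = 0.239 and 0.193). med1, a large middle subunit bound by nuclear receptors, had 4.43, 3.64 and 2.51 FPKM in GF heads, against 3.58, 5.04 and 8.11 FPKM in CV heads, where the groups overlapped (-0.50 ± 0.26, SE, n = 3 each, adjusted p = 0.287). The ratio of med14 to med6, a head subunit, was 0.0227, 0.0261 and 0.0156 in GF heads, against 0.127, 0.0488 and 0.216 in CV heads (log2 difference -2.39, exact permutation test, p = 0.1, no overlap).

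Across the complexes the genes that fell were expressed at low to moderate levels, with CV means of 2.25 to 14.0 FPKM and a median of 6.80 FPKM, beside a median of 25.5 FPKM for the other 57. Of the other 57, 16 also had CV means of no more than 14.0 FPKM and did not fall, and 8 of these 16 had a higher mean in GF. The limit of 14.0 FPKM is itself the highest CV mean among the 17, so the absence of genes that fell above it tests nothing. The part of the level in the results was not tested. Many of the 17 also encode the large proteins of their complexes. Of 14 members whose human counterparts are large proteins (polr2a, polr2b, taf1l, taf2, taf3, taf4a, gtf2ird1, med1, med12, med13a, med13b, med14, med23 and med24) 11 fell and all 14 had negative estimates, and of the other 60, 6 fell (taf5, taf6l, gtf2h1, med15, med17 and med25). That grouping rests on general knowledge of the human proteins, was made after the values were seen, and used no measured length. Of the genes that fell, taf4a, med13a and med13b among the large and taf6l among the others entered the test only through CV. Their calls are no support here either, and over all genes tested 11.6% fell. med24, a large tail subunit at 23.0, 19.2 and 19.1 FPKM in GF heads, against 18.7, 21.1 and 22.0 FPKM in CV heads, was an exception with an estimate of -0.01.

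The CV samples were spread more widely for these genes. For the 17 the median SD of log2(FPKM + 1) was 0.613 in CV, beside 0.216 for the other 57 members and 0.270 for all genes tested, and without CV2 it was 0.320, beside 0.131 for the other 57. In ZM and GF the order of the medians depended on the setting. It was 0.209 for the 17 and 0.138 for the other 57 in ZM, but 0.128 and 0.152 without ZM2, and without ZM3 that of the other 57 was 0.0722. In GF it was 0.0887 for the 17 and 0.119 for the other 57, but 0.125 and 0.0993 with quantile normalization, and without GF1 that of the 17 was 0.0559. In CV the samples stood in nearly the same order for all of the 17: CV2 was lowest in 17 of 17 and CV3 highest in 15. In the other 57 the order was mostly turned, with CV2 highest in 43 and CV3 lowest in 31. The median FPKM of the 17 was 7.05, 2.91 and 9.72 in CV1, CV2 and CV3, and that of the other 57 was 26.1, 30.7 and 23.3.

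**Figure D4:**
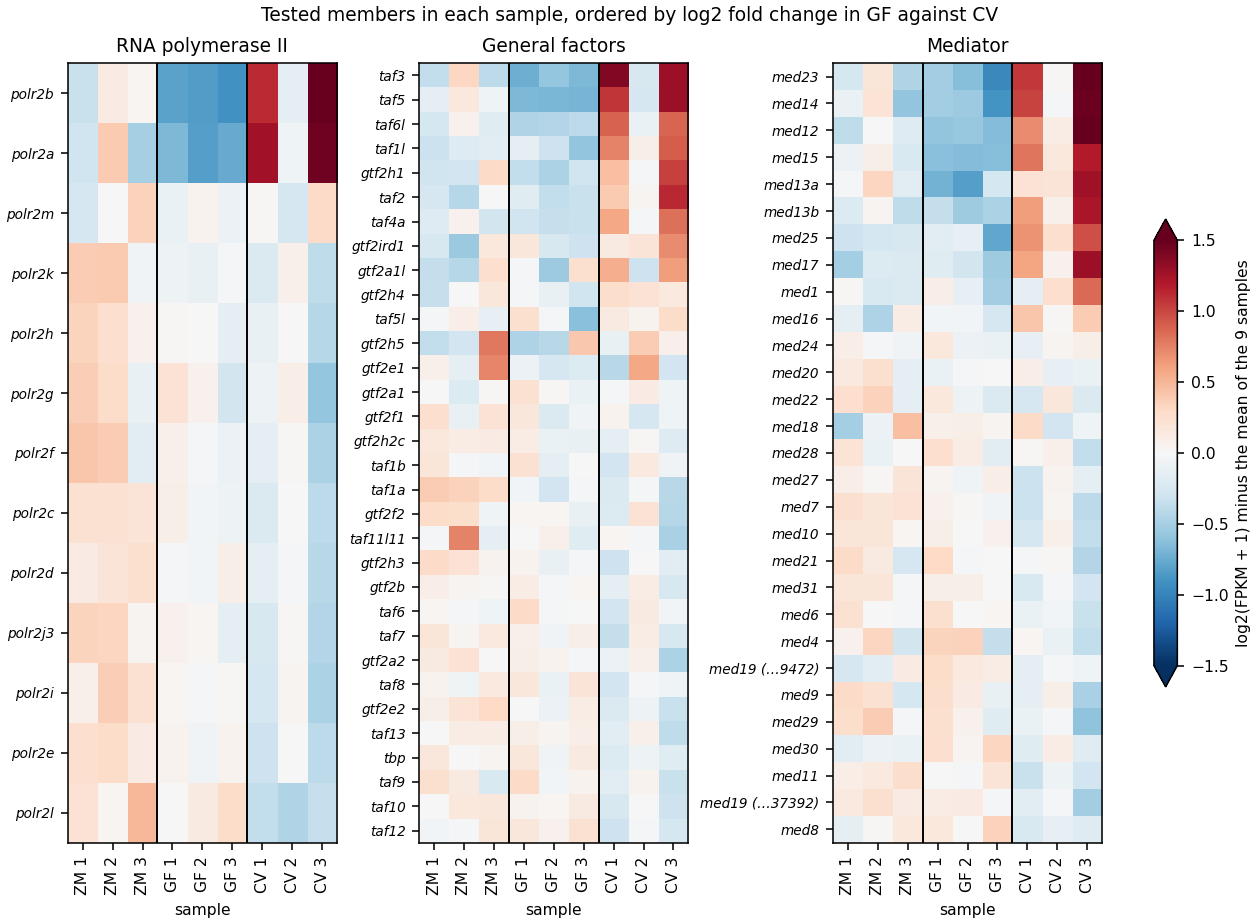
Log2(FPKM + 1) of each tested member minus its mean over the 9 samples, with samples in columns (ZM, GF, CV) and genes in rows, sorted within each complex by the fold change in GF against CV. The top rows are highest in CV1 and CV3 and mostly lowest in GF, and most rows below them vary less between samples.

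The count of calls depended on single libraries. Without CV2, 17 members fell and 2 rose (med7 and taf12) at an adjusted p under 0.05, beside 13.8% and 1.85% of all genes, and the 17 were the same genes. At an adjusted p under 0.1 without CV2, 18 members fell (the 17 and med16; 17.0% of all genes) and 12 rose (6.03% of all genes), which were 2 and 3 for the polymerase, 7 and 4 for the general factors and 9 and 5 for Mediator. With no adjustment, 19 were then lower at a p under 0.05 (19.7% of all genes) and 18 higher (11.4% of all genes). Among the 19, gtf2a1l averaged 0.871 FPKM in GF and 0.785 FPKM in ZM. It entered the test only through CV, so its call is no support. Without CV1, without CV3, or without any 1 of the GF samples, 0 of the 17 passed an adjusted p of 0.1. Of all genes tested, 0 or 1 were lower at that threshold each time, so this loss was not particular to the members. All 17 stayed lower with an unadjusted p under 0.05 each time. These refits reuse the samples that chose the 17, so they describe these genes and test nothing. The members that rose without CV2 are no test either. CV2 was the highest CV sample in 43 of the other 57, so leaving it out raised the estimates of those 43. Among the 17 are still taf4a, taf6l, med13a and med13b, whose calls are no support. The median log2 fold change of the 17 was -0.82 without CV3, the weakest of any setting tried.

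Genes that act with the polymerase after initiation gave mixed counts in the same comparison. Of 29 tested genes for pausing and elongation, 12 fell and 0 rose at an adjusted p under 0.1, beside 11.6% and 0.78% of all genes. They include supt5h, the gene of the elongation and pausing factor Spt5, at 7.01, 5.94 and 4.53 FPKM in GF heads, against 18.7, 8.66 and 27.7 FPKM in CV heads (log2 fold change -1.38 ± 0.33, SE, n = 3 each, limma adjusted p = 0.0532), and the kinases cdk12 and cdk13, which phosphorylate the tail of Rpb1, at -1.57 and -1.62. The smaller Spt5 partner supt4h1 had 0.32 ± 0.13 (adjusted p = 0.187) and cdk9, the pause-release kinase, 0.16 ± 0.12 (adjusted p = 0.446). Among tested genes for tail phosphatases and termination 3 of 11 fell, of Integrator, which cleaves nascent RNA, 4 of 15, and of SAGA 4 of 14 (taf6l among them). Both taf6l and, among the 29 genes for pausing and elongation, aff4 entered the test only through CV, so a call of either is no support. Of TBP-related factors 1 of 4 fell, which was btaf1, an enzyme that removes TBP from DNA (log2 fold change -1.22 ± 0.26, SE, limma adjusted p = 0.0531). None of the 5 other TFIIH genes passed (ercc2, ercc3, cdk7, ccnh and mnat1, limma, 0 at an unadjusted p under 0.05). Of all genes, 18.0% were lower and 4.7% higher with no adjustment. With so few genes, 0 of 5 does not set them apart from those shares.

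The second comparison asks what the gut filtrate changed in germ-free heads. No member differed between ZM and GF at an adjusted p under 0.1 in either direction, which 1 of all genes tested passed as higher (0.00629%) and 0 as lower, and the smallest adjusted p among members was 0.848 (limma). With no adjustment, 0 members were lower at a p under 0.05 (3.16% of all genes) and 2 higher (2.55% of all genes), med15 and taf1a. Every ZM sample lay above every GF sample for 17 members (23.0%, against 10.4% of all genes) and below for 1, med30 (6.17% of all genes). Without CV2, which enters this fit only through the shared spread, 1 member (med30) was lower with no adjustment (3.68% of all genes) and 8 higher (5.34% of all genes). No label says that the samples were paired, but same-numbered ZM and GF samples deviated together, which was read as pairing. The main fit and the exact permutation tests did not use this pairing. A fit of ZM and GF alone with the number as a block also passed 0 members, with 13 higher at an unadjusted p under 0.05 beside 9.67% of all genes. Of the marker lists, that for lens and retina (6 of 10 listed names measured, none at 0 throughout) was separate here, at a summed 622 to 1191 FPKM in ZM and 1192 to 1457 FPKM in GF, and its part in the results was not tested.

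The estimates for the polymerase all had the same sign. All 13 tested genes had a higher mean in ZM, with log2 fold changes of 0.08 to 0.78. In 7 of them every ZM sample lay above every GF sample (10.4% of all genes). All tested genes of RNA polymerase I (8, median 0.29) and RNA polymerase III (9, median 0.12) had higher means in ZM as well. Over all genes tested 8080 of 15904 did, so the shared sign is not particular to RNA polymerase II. polr2b had 3.88, 5.68 and 5.29 FPKM in ZM heads, against 2.53, 2.45 and 2.28 FPKM in GF heads, the highest estimate among members (0.78 ± 0.38, SE, n = 3 each, limma adjusted p = 0.848). polr2a had 2.17, 4.14 and 1.77 FPKM in ZM heads, against 1.45, 1.21 and 1.32 FPKM in GF heads (0.61 ± 0.37, adjusted p = 0.863), where ZM2 was high and the other ZM samples were just above GF. polr2c had 56.2, 56.2 and 54.5 FPKM in ZM heads, against 50.6, 46.3 and 45.3 FPKM in GF heads, also with no overlap (0.23 ± 0.13, adjusted p = 0.859). The ratio of polr2a to polr2c was 0.0386, 0.0737 and 0.0324 in ZM heads, above the 3 GF ratios (log2 difference 0.69, exact permutation test, two-sided, p = 0.1). The size of that difference rested on ZM2, and was 0.34 without it.

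The 17 genes that were lower in GF against CV had higher means in ZM than in GF without exception, by 0.02 to 0.78 on the log2 scale with a median of 0.41. Both comparisons share the GF samples, so this direction is not independent of how the 17 were found. taf5 had 3.70, 4.79 and 3.99 FPKM in ZM heads, against 2.25, 2.23 and 2.21 FPKM in GF heads (0.67 ± 0.34, SE, n = 3 each, limma adjusted p = 0.855). med13a had 1.25, 1.88 and 1.06 FPKM in ZM heads, against 0.411, 0.298 and 0.924 FPKM in GF heads (0.64 ± 0.30, adjusted p = 0.848). Neither gene's groups overlapped, and 10 of the 17 were separate in this way. Of all genes tested, which were not chosen by their GF values, 10.4% were. ZM2 was the highest ZM sample in 13 of the 17.

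The lowest estimates in ZM against GF were in Mediator. med30, an upper tail subunit, had 6.30, 6.78 and 6.67 FPKM in ZM heads, against 8.80, 7.44 and 9.27 FPKM in GF heads, with all ZM samples below all GF samples (-0.32 ± 0.15, SE, n = 3 each, limma adjusted p = 0.848). med19 (ENSDARG00000009472) had 17.5, 18.8 and 23.0 FPKM in ZM heads, against 25.7, 23.5 and 22.9 FPKM in GF heads (-0.27 ± 0.13, adjusted p = 0.854), and med8 had an estimate of -0.15. tbp stayed close, at 22.1 ± 1.4 FPKM in ZM and 22.3 ± 1.9 FPKM in GF (SD, n = 3 each). The medians were 0.22 for the polymerase, 0.10 for the general factors and 0.08 for Mediator, beside 0.00396 for all genes.

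The third comparison sets germ-free heads given the filtrate against conventionally raised heads. No member and no other gene passed an adjusted p of 0.1 in ZM against CV, and the smallest adjusted p was 0.156 (limma). With no adjustment, 16 of 74 members were lower at a p under 0.05 (21.6%, against 16.5% of all genes) and 19 higher (25.7%, against 6.94% of all genes). The 17 genes lower in GF had lower means in ZM than in CV as well, at a median of -0.82 on the log2 scale. The median of their ZM means as a share of CV means was 45.1%. Both comparisons share the CV samples, so this direction is not independent of how the 17 were found. Among the 17, taf4a, taf6l, med13a and med13b entered the test only through CV and are no support here either. polr2a averaged 2.69 ± 1.3 FPKM in ZM and 6.94 ± 3.7 FPKM in CV (SD, n = 3 each), and ZM2, at 4.14 FPKM, exceeded CV2, at 2.74 FPKM. The lens and retina markers were separate in this comparison too, at a summed 622 to 1191 FPKM in ZM and 1301 to 1499 FPKM in CV. Again elavl3 was below CV in every sample (13.3% of all genes), at 42.3, 42.5 and 40.0 FPKM in ZM heads. The part of these markers in the results was not tested.

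The small polymerase subunits showed the other side. All 10 had higher means in ZM than in CV, by 0.36 to 0.64 with a median of 0.42. Of these, 9 were higher at an unadjusted p under 0.05 (6.94% of all genes). In 7 of the 10 all ZM samples were above all CV samples (8.51% of all genes). polr2l had 96.0, 84.3 and 117 FPKM in ZM heads, against 63.3, 60.1 and 64.4 FPKM in CV heads (0.64 ± 0.14, SE, n = 3 each, limma adjusted p = 0.156). polr2e had 94.1, 95.2 and 85.7 FPKM in ZM heads, against 63.5, 78.9 and 60.0 FPKM in CV heads (0.45 ± 0.13, adjusted p = 0.156). With an equal sum per sample all 10 stayed above 0 with a median of 0.28, where the median of all genes was -0.16.

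Without CV2, 15 members fell and 15 rose in ZM against CV at an adjusted p under 0.05 (limma), beside 12.1% and 3.75% of all genes. The 15 that fell were all among the 17 genes lower in GF. Both comparisons share CV samples, so this overlap is not independent of how the 17 were found. Of the 15 that fell, med13b, taf4a and taf6l entered the test only through CV, so their calls are no support. The 15 that rose included 7 polymerase genes (polr2c, polr2d, polr2e, polr2i, polr2j3, polr2k and polr2l), 4 general factors (gtf2e2, taf1a, taf7 and taf10) and 4 Mediator genes (med7, med10, med11 and med19 ENSDARG00000037392). CV2 was the highest CV sample in 43 of the 57 members outside the 17. Leaving it out raised the estimates of those 43 against CV, so these rises test nothing.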

How the data were processed

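The authors extracted RNA from pools of 5 heads, prepared stranded poly(A) libraries, checked reads with FastQC 0.11.8, mapped them to GRCz11 with HISAT2 2.1.0 and deposited StringTie 1.3.4d FPKM for 32520 Ensembl genes. The authors' own tests used DESeq2 1.29.13 on HTSeq 0.11.0 counts, not used here. The reads behind each FPKM are unknown, and low values did not give whole reads back, so no counting interval is given. Symbols came from a name table that covers 29201 of the identifiers and gives some zebrafish genes the symbols of human paralogs (taf1l, polr2j3, taf11l11, gtf2h2c).

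FPKM was tested without rescaling as log2(FPKM + 1), for genes with a mean of at least 1, in limma 3.58.1 (R 4.3.3) with 1 mean per group, eBayes with trend and two-sided tests. Thresholds were 0.05 for comparisons with CV, with 0.1 beside it, and 0.1 for ZM against GF. Named genes were the 4 lowest and 3 highest per complex in GF against CV, the 3 highest and 3 lowest in ZM against GF, and 8 chosen by role, with others by counts or from fixed pathway lists. The script was tested on simulated data. Members and lists were chosen with earlier results of these data known. No label says that replicates came from separate clutches, so p-values measure the spread between these pools. Same-numbered ZM and GF samples deviated together (r = 0.409, 0.466 and 0.616, against -0.51 to 0.29 for unlike numbers), which was read as pairing. This did not hold for GF and CV (-0.058, 0.146 and 0.316) or ZM and CV (0.0624, 0.0605 and 0.488).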

Additional observations from a re-analysis of the deposited data

How the results depend on the processing

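The 17 members lower in GF against CV stayed lower under every setting tried, with an unadjusted p under 0.05 in all that were tested there (limma). The settings reuse the samples that chose the 17, so this describes them and tests nothing. With genes of at least 5 FPKM only 5 of them were tested. Depth is unknown, so counting error in genes near 1 FPKM was not measured. Calls near the threshold moved with the settings as follows.

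In GF against CV at an adjusted p under 0.05, members lower numbered 11 with a pseudocount of 0.1, 12 with group-specific variances and 14 with a replicate block and only these groups, where all genes numbered 841, 787 and 1295 lower and 17, 7 and 29 higher. At an adjusted p under 0.1, members lower numbered 4 at a mean of at least 5 FPKM, 0 with all genes above 0, 11 with quantile normalization and 0 with only these groups (all genes 683, 0, 886 and 1 lower and 75, 0, 231 and 0 higher). Members higher numbered 2 with median-of-ratios rescaling and 0 with an equal sum, quantile normalization, only these groups or all genes above 0. All genes higher numbered 217 with median-of-ratios rescaling, 38 with an equal sum, 58 with group-specific variances and 73 with the block and only these groups. With all genes above 0, 0 genes were lower at 0.05.

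The equal sum moved the median of general factors in GF against CV to -0.0272 and of Mediator to 0.0292, and in ZM against CV to 0.0181 and -0.0173, while the limit of 5 FPKM gave 0.226 for general factors in ZM against CV. polr2k in GF against CV turned to -0.0266 with an equal sum and, with 1 sample left out, ranged from -0.00177 to 0.226. polr2m turned to 0.179 with quantile normalization and ranged from -0.197 to 0.0722. The ratio of taf1l to taf10 in ZM against GF ranged from -0.0745 without GF3 to 0.247. In ZM against GF, the gene higher at 0.1 was lost (0) with all genes above 0, each rescaling or eBayes without trend. Only these groups also gave 0, and the replicate block with only these groups gave 2. The block changed no member's call in that comparison.

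Leaving out 1 sample at a time in GF against CV, members lower ranged from 0 to 17 at 0.05 and 0 to 18 at 0.1, and members higher from 0 to 2 and 0 to 12. All genes lower ranged from 0 to 2202 and 0 to 2702, and all genes higher from 0 to 295 and 0 to 959. In ZM against CV, members lower ranged from 0 to 15 and 0 to 17, members higher from 0 to 15 and 0 to 23, all genes lower from 0 to 1922 and 0 to 2634, and all genes higher from 0 to 597 and 0 to 1320. In ZM against GF, all genes higher at 0.1 ranged from 0 to 1. Medians in GF against CV ranged from 0.0722 to 0.294 for the polymerase, -0.00143 to 0.184 for general factors and 0.0686 to 0.242 for Mediator. In ZM against CV they ranged from 0.279 to 0.522 for the polymerase, 0.0843 to 0.22 for general factors and 0.0445 to 0.15 for Mediator, and in ZM against GF from 0.199 to 0.322 for the polymerase. The cause of these shifts was not tested.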
